A study of Mus musculus with 18 samples.

Results

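The comparison set 3 non-SP arrays against the 3 non-SP arrays labelled A2C12, which together are 6 of the 18 arrays in the series. The 3 arrays are those labelled betaD5 2, betaD5 3 and cRAF_cMYC 3, selected on a measured value: Efemp1, a secreted matrix protein, lay below log2 9 in them. They are called Efemp1-low here, and the remaining arrays of the labels betaD5 and cRAF_cMYC (betaD5 1, cRAF_cMYC 1 and 2) are called Efemp1-high. Side population (SP) cells stay dim in Hoechst dye through efflux transporters, and cells that retain the dye are called non-SP. A2C12, betaD5 and cRAF_cMYC are cell lines that arose from lung tumours of mice aged 8 months carrying 2 transgenes, of which c-myc is one, so every group shares them. They grew in medium with 10% fetal calf serum, and no group received a treatment. The promoters that drive the transgenes, and whether the replicates are separate cultures, are not given in the sources used here, so p-values reflect only how far these arrays spread. Each label names 1 cell line, and line and any batch cannot be told apart.

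The choice rests on values of these arrays and goes against their labels, since it joins arrays of 2 labelled lines and leaves out others of the same lines. In the deposited values Efemp1 was 3.93 to 4.38 (log2) in the 3 Efemp1-low non-SP arrays, and the nearest array outside the limit was at 12.74. Fgf13, an X-linked gene of the fibroblast growth factor family, was 11.99 to 12.31 in Efemp1-low, 3.42 to 4.73 in A2C12 and 4.32 to 5.96 in Efemp1-high non-SP arrays. These are values after quantile normalization, which gives every array the same distribution of values. Over the 10916 genes tested, the Efemp1-low non-SP arrays correlated with each other at 0.981 to 0.988, with A2C12 at 0.850 to 0.880 and with Efemp1-high at 0.890 to 0.924. The difference between Efemp1-low and A2C12 non-SP arrays is therefore given as a description with no test. Tests were made in the SP arrays of the same labels and numbers, which the choice did not use. Those arrays are no fully independent sample, because each correlated with its non-SP partner at 0.980 to 0.997 and was known when the choice was made.

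Carcinomas of the lung keep features of the alveolar or airway epithelium, such as E-cadherin, keratins and surfactant proteins. The mesothelium, the flat cell layer that covers the lung and lines the chest wall, expresses Wt1, mesothelin and uroplakin 3b and shares keratins with epithelia, while fibroblasts and mural cells make interstitial collagens and contractile proteins. Of 24 epithelial adhesion and keratin genes, 6 lay at or below a mean of 5.56, the level under which 25% of all genes fall, in Efemp1-low non-SP arrays, as did 6 in A2C12 and 8 in Efemp1-high. Cdh1, which encodes E-cadherin, had a mean of 4.39 in Efemp1-low and 6.66 in A2C12, while the epithelial adhesion molecule Epcam had 9.03 and 8.57 and the keratin Krt19 had 10.84 and 12.05. Of the 10 epithelial genes tested 1 was higher and 1 lower in SP arrays. The other 14, Cdh1 among them, were too low in mean level over all arrays to be tested, so this count does not cover them. Untested Pkp1 had means of 5.96 in Efemp1-low and 8.32 in A2C12 non-SP arrays. Untested Ocln (5.80 and 5.46) and Krt7 (5.17 and 4.87) lay the other way. The mean level over the alveolar type II markers was 7.06 to 7.33 in Efemp1-low and 7.34 to 7.53 in A2C12 non-SP arrays. Among them Cxcl15 had means of 7.71 and 10.44, and of 7 tested 1 was higher and 1 lower in SP arrays. The alveolar type I markers averaged 8.33 to 8.43 and 8.71 to 8.81. Of 7 tested, 3 were higher and 3 lower in SP arrays, against 24.0% and 22.3% of all genes. Among endothelial and leukocyte markers, Pecam1 (4.67 and 5.04) and Ptprc (4.08 and 3.78) were low in both groups, the macrophage receptor Csf1r was high in both (10.55 and 10.58), and Ecscr was at 7.50 and 10.83.

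Of the 10916 genes, 1626 (14.9%) differed by at least 1 (log2, a factor of 2) between Efemp1-low and A2C12 non-SP arrays with no overlap between the groups, 778 (7.13%) higher and 848 (7.77%) lower. Groups not overlapping at any size made up 58.5% of the genes. At least 4 log2 units separated 29 of the higher and 53 of the lower genes. In the SP arrays, 5051 genes (46.3%) passed limma's test at a Benjamini-Hochberg adjusted p under 0.05, 2622 (24.0%) higher in Efemp1-low and 2429 (22.3%) lower. Called in the same direction in SP arrays were 773 of the 778 genes and 824 of the 848, and 0 were called the other way. The SP arrays are close partners of the non-SP arrays that listed these genes, so this overlap is no independent support. The split depends on the scaling: of the genes so listed, 47.8% were higher after quantile normalization and 89.3% in the values as deposited (51.9% and 92.0% of the SP calls). The median over all genes moved from 0.04 to 0.66 between these scalings in non-SP arrays and from 0.02 to 0.68 in SP arrays. All differences below are relative to the common distribution. List counts below are SP calls, to be read against the 24.0% higher and 22.3% lower over all genes, and list counts in values as deposited against 6083 genes higher and 527 lower.

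Among the 15 genes most above A2C12 were mesothelial markers, imprinted genes, a Wnt agonist and an aldehyde dehydrogenase. Gpm6a, a neuronal and mesothelial membrane glycoprotein, read 12.73, 12.26 and 13.21 in the non-SP arrays betaD5 2, betaD5 3 and cRAF_cMYC 3 and 3.36, 3.43 and 3.36 in A2C12 1 to 3. Aldh1a1, which oxidizes retinaldehyde to retinoic acid, read 13.72, 13.90 and 13.95 against 6.11, 5.12 and 4.40. The 3 arrays of each group stood together and far from the other group for both genes. Ndn, a maternally imprinted regulator of growth, read 11.43, 11.58 and 11.71 against 3.94, 4.38 and 4.12. Peg3, a paternally expressed zinc finger gene, read 12.20, 12.55 and 12.29 against 5.22, 6.07 and 5.17. Both imprinted genes were near the bottom of the scale in A2C12. Pmaip1, the proapoptotic BH3 protein Noxa, read 11.17, 11.44 and 11.55 against 5.06, 4.82 and 3.30, and the last A2C12 array was the lowest. Rspo3, a secreted enhancer of Wnt signalling, read 9.77, 8.87 and 9.91 against 3.53, 3.66 and 3.45. Ivns1abp (difference 8.51), Gnai1, an inhibitory G protein subunit (7.03), Nt5e, the ectonucleotidase CD73 (5.86), the scavenger receptor Colec12 (5.52), the aggrecanase Adamts5 (5.48) and the phospholipase Plce1 (5.12) belonged to the same 15.

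In the SP arrays all 15 were called higher in Efemp1-low than in A2C12 (limma adjusted p, at most 4.45e-07), with differences from 4.95 ± 0.29 (SE) for Plce1 to 9.54 ± 0.43 for Gpm6a. Gnai1 was also higher than in Efemp1-high SP arrays by 3.38 ± 0.36 (limma adjusted p = 2.53e-05), as were Gpm6a, Aldh1a1, Adamts5, Bnc1 and Plce1 by 0.94 to 2.02. The calls for Aldh1a1, Bnc1 and Plce1 against Efemp1-high were lost without the SP array cRAF_cMYC 3 and with the 3'/5' signal ratio as a covariate (limma adjusted p from 0.0515 to 0.172). Those for Aldh1a1 and Plce1 were also lost without betaD5 3, and that for Plce1 without betaD5 1 or cRAF_cMYC 2 (limma adjusted p from 0.0584 to 0.101). The other 9 did not pass this test, and their differences lay between -0.76 ± 0.47 for Lrrn4 and 0.36 ± 0.21 for Ivns1abp, which passed when all its probe sets were averaged (limma adjusted p = 0.0356). Probe sets of the same gene did not always show the difference: 3 further Ndn probe sets differed by 0.04 to 0.61 and 2 of Nt5e by 0.45 and 0.59, while both further Ivns1abp probe sets were higher by 3.18 and 7.89.

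**Figure D1:**
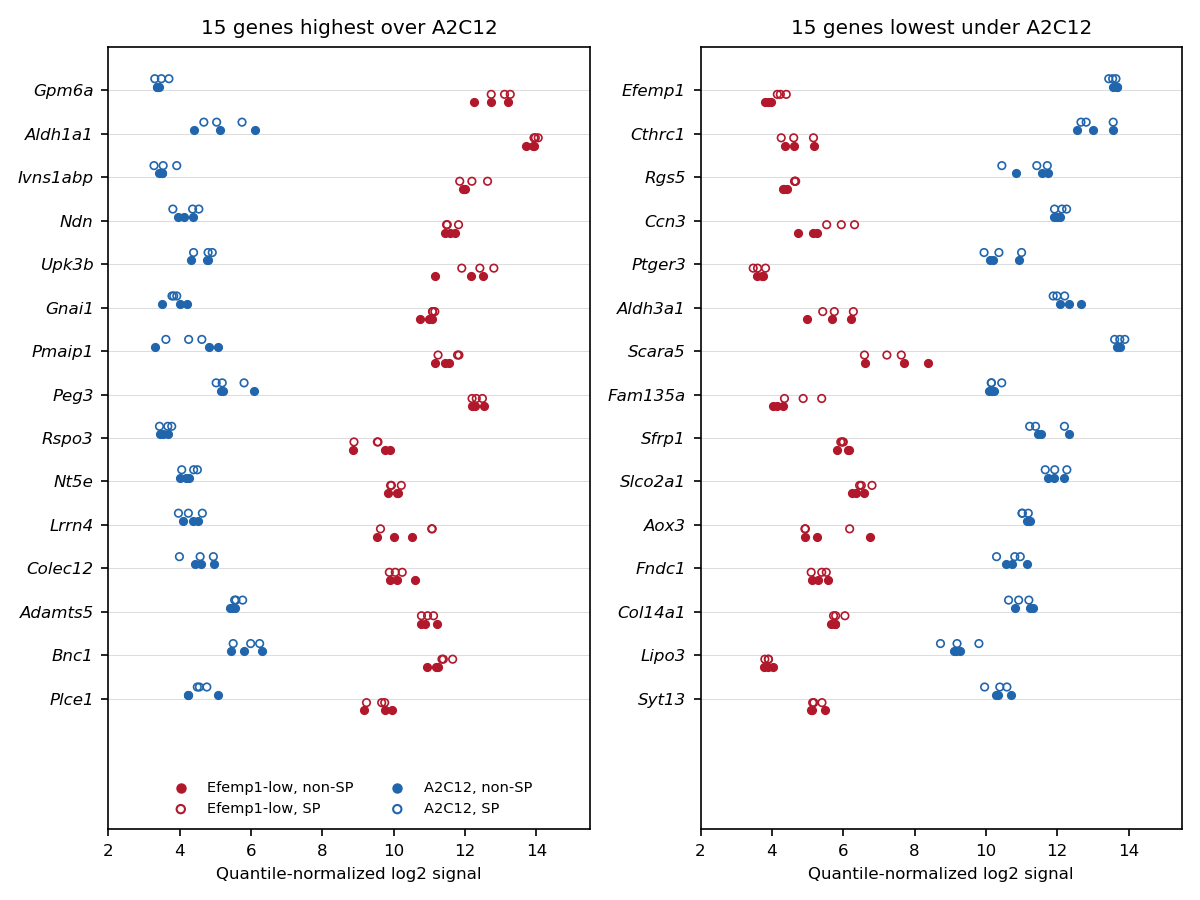
Quantile-normalized log2 signal of the 15 genes with the largest positive (left) and the 15 with the largest negative (right) mean difference between Efemp1-low and A2C12 non-SP arrays. Each point is 1 array, filled for non-SP and open for SP cells. The non-SP values chose the genes; for Gpm6a they are 12.26 to 13.21 in Efemp1-low and 3.36 to 3.43 in A2C12, and the open points fall beside the filled ones.

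The 15 genes most below A2C12 were led by Efemp1, the gene of the choice itself, and held secreted matrix and Wnt-modulating proteins. Cthrc1, a secreted collagen triple helix repeat protein, read 5.19, 4.62 and 4.38 in betaD5 2, betaD5 3 and cRAF_cMYC 3 against 12.54, 12.99 and 13.57 in A2C12 1 to 3. Rgs5, a G protein regulator typical of pericytes, read 4.43, 4.33 and 4.33 against 11.58, 10.84 and 11.73. Neither gene overlapped between the groups. In Efemp1-high non-SP arrays Cthrc1 had a mean of 12.55 and Rgs5 of 10.18, and Rgs5 was lower than in A2C12 there in SP arrays (-1.61, limma adjusted p = 0.00261). Aldh3a1, a corneal and stress-induced aldehyde dehydrogenase, read 4.99, 6.21 and 5.69 against 12.66, 12.34 and 12.07. Scara5, a ferritin receptor, read 7.70, 6.62 and 8.37 against 13.71, 13.69 and 13.77. These 2 genes were low in Efemp1-high as well, at 4.13 to 4.27 and 7.72 to 8.34. Ccn3 (difference -6.94), the prostaglandin receptor Ptger3 (-6.73), Fam135a (-6.00), the Wnt inhibitor Sfrp1 (-5.74), the prostaglandin transporter Slco2a1 (-5.55), the aldehyde oxidase Aox3 (-5.55), Fndc1 (-5.49), the fibril-associated collagen Col14a1 (-5.39), Lipo3 (-5.28) and Syt13 (-5.22) completed the 15.

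In the SP arrays all 15 were called lower than in A2C12 (limma adjusted p, at most 2.86e-08). Efemp1 set the groups, so its own calls follow from the choice and are no result (-9.29 ± 0.16 against A2C12). The others ran from -5.07 ± 0.19 for Col14a1 to -8.34 ± 0.28 for Cthrc1. Against Efemp1-high SP arrays, 12 were called lower, with Efemp1 (-8.98 ± 0.16) counted among them. Apart from Efemp1 they ran from -1.29 ± 0.20 for Fndc1 to -8.01 ± 0.28 for Cthrc1. Aldh3a1 was higher by 1.60 ± 0.20 (limma adjusted p = 0.00012). Scara5 (-0.34 ± 0.26) and Aox3 (-0.73 ± 0.32) did not pass, although Aox3 did without cRAF_cMYC 1 or 3 (limma adjusted p = 0.0367 and 0.00831), and Fndc1 no longer passed when all its probe sets were averaged (limma adjusted p = 0.0565). The difference of Fam135a rests on 1 probe set: 3 others, all low in both groups, differed by -0.26 to -0.65. Further probe sets of Ptger3, Scara5 and Fndc1 differed by -0.08, -0.04 and 0.29.

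A comparison by labels alone set the mean of the labelled lines betaD5 and cRAF_cMYC against A2C12 in all 9 non-SP arrays, and it shares the 6 arrays of the choice, so it is no independent test of the 30 genes, and their values are given as a description. It called 3243 genes (29.7%), 1759 higher and 1484 lower. Differences of the 15 higher genes ran from 4.82 for Adamts5 to 8.75 for Gpm6a. Among the lower genes Cthrc1 differed by -4.39, Rgs5 by -4.11, Slco2a1 by -3.37 and Fam135a by -2.89, none of them past the test (limma adjusted p from 0.0545 to 0.215). In the Efemp1-high non-SP arrays alone these 4 genes differed from A2C12 by -0.48, -1.20, -1.18 and 0.22. Without A2C12 2 or 3 of the non-SP arrays, the comparison by labels called 1035 or 1104 genes higher and 813 or 855 lower.

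Mesothelial markers were mostly higher in Efemp1-low. Of 18 on the array, 15 passed the level limit of 6.54 (log2, mean over all arrays), and Muc16, Rspo1 and Aldh1a2 were not tested. Of the 15, 9 were higher and 3 lower in Efemp1-low than in A2C12 SP arrays (median difference 1.43). Over all genes these were 24.0%, 22.3% and 0.02. Gpm6a, Upk3b, Lrrn4, Bnc1 and Wt1 had A2C12 non-SP means under that limit and passed it through the other arrays. The share called higher is therefore a description. The uroplakin Upk3b read 12.16, 11.16 and 12.49 in the Efemp1-low non-SP arrays and 4.79, 4.75 and 4.31 in A2C12. Lrrn4, a leucine-rich repeat membrane protein of mesothelium, read 10.01, 9.53 and 10.51 against 4.51, 4.37 and 4.09, and the zinc finger factor Bnc1 read 11.23, 10.95 and 11.18 against 6.32, 5.82 and 5.45. These genes did not overlap between the groups. The transcription factor Wt1 was 9.87 against 5.93 on average in non-SP arrays and 4.24 higher in SP arrays (limma adjusted p = 8.89e-06), and mesothelin (Msln) was 10.07 against 7.59 and 3.14 higher (limma adjusted p = 0.000161). Nkain4 (2.70) and Cpe (1.43) were called higher too. Podxl, the sialomucin podocalyxin, was lower in SP arrays (-3.13, limma adjusted p = 3.49e-07), as were Krt8 (-0.89) and Calb2 (-0.69). Krt19 read 10.66 to 10.97 against 11.84 to 12.45 in non-SP arrays and did not pass in SP arrays (-1.01 ± 0.54). These are cultures measured in bulk, so fewer cells of a kind and less RNA per cell cannot be told apart.

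Against Efemp1-high SP arrays, 5 of the 15 markers were higher in Efemp1-low (Gpm6a, Bnc1, Cpe, Upk1b and Krt18) and Podxl was lower, against 13.1% and 14.4% of all genes. The Efemp1-high non-SP arrays read 12.30 to 13.57 for Upk3b, 11.11 to 12.26 for Lrrn4 and 10.00 to 11.14 for Bnc1. In SP arrays Efemp1-low differed from them by -0.35 ± 0.41 for Upk3b (95% interval -1.24 to 0.54; limma adjusted p = 0.563) and by -0.76 ± 0.47 for Lrrn4. Both passed, lower in Efemp1-low, when cRAF_cMYC 2 was left out (-0.98 and -1.34). Averaged over 18 mesothelial genes on the array, the level was 9.04 to 9.38 in Efemp1-low, 8.67 to 9.50 in Efemp1-high and 7.10 to 7.35 in A2C12 non-SP arrays. With the SP arrays betaD5 2 and 3 left out, 8 markers were called higher and 2 lower.

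**Figure D2:**
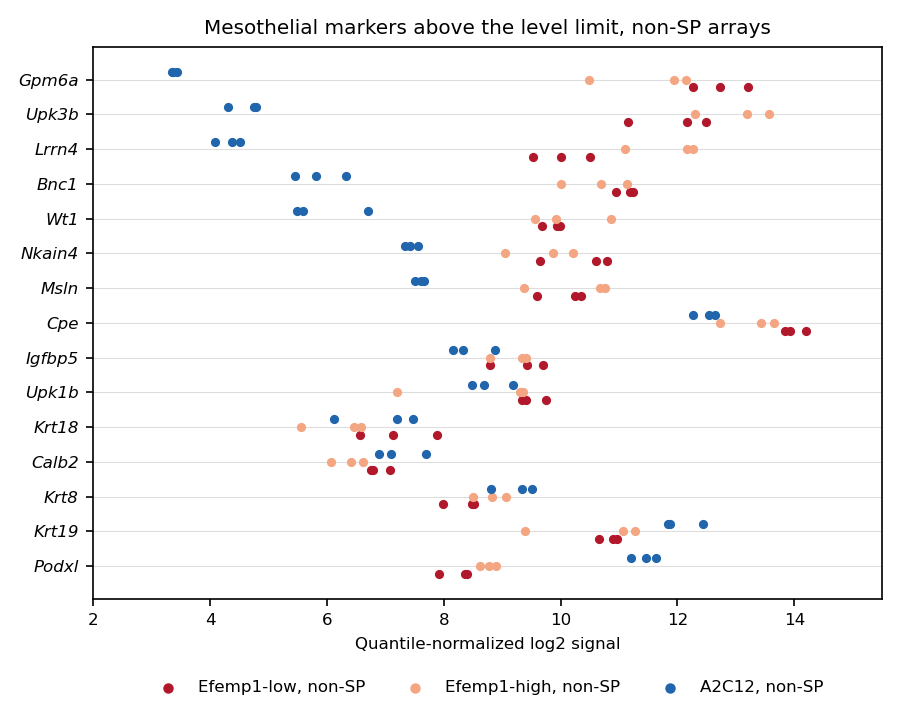
Quantile-normalized log2 signal of the 15 mesothelial markers above the level limit in non-SP arrays, ordered by the difference between Efemp1-low and A2C12. Each point is 1 array. Gpm6a, Upk3b, Lrrn4 and Bnc1 stand far above A2C12 in both other groups, while Podxl and Krt19 lie below it.

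The sequences before the starts of Upk3b, Bnc1 and Efemp1 are shown for 2 of the mesothelial markers given above, picked after their CG counts were seen as they differ in them, and for the gene of the choice. They are the 250 bases before the RefSeq start (GRCm38.p6), with every CG dinucleotide, the site of DNA methylation, in capitals.
Upk3b, chr5:136038246-136038495, plus strand: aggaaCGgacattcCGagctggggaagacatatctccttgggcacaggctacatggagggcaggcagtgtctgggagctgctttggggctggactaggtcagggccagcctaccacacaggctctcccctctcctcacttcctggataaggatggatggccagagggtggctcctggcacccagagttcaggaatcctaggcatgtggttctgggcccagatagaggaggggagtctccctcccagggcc
Bnc1, chr7:81992300-81992549, minus strand: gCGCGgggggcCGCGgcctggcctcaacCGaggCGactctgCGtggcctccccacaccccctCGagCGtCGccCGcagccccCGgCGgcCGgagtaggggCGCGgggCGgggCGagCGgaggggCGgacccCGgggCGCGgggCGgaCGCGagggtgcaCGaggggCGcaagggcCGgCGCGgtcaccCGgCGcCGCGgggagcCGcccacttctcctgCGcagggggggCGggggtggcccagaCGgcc
Efemp1, chr11:28852955-28853204, plus strand: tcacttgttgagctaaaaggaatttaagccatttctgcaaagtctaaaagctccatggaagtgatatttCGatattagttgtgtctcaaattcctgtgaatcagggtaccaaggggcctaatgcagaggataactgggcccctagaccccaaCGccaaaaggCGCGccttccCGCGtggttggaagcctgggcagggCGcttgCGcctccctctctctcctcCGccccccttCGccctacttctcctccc
The Upk3b window held 2 CG, the Efemp1 window 10 and the Bnc1 window 39. Of the 30 genes, 16 had 1 such window, with a median of 9.5 CG (range 2 to 43), and over the 7046 tested genes with 1 window the median was 17 (quartiles 11 and 23), with at least 1 CG in 99.1%. DNA methylation was not measured in these data.

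Fibroblast and mural markers split. In SP arrays 7 of 17 were higher in Efemp1-low than in A2C12 and 3 lower (median 0.69), against 24.0% and 22.3% of all genes (11 and 3 in values as deposited). Decorin (Dcn), a small matrix proteoglycan, read 12.22, 11.64 and 12.59 in Efemp1-low and 11.45, 9.56 and 8.47 in A2C12 non-SP arrays, where 1 A2C12 array lay close to the other group, and was 2.73 higher in SP arrays (limma adjusted p = 9.07e-05). The calponin Cnn1 (1.73), the stem and fibroblast antigen Cd34 (2.04), Tagln (1.47), Acta2 (1.05) and Col1a2 (1.33) were also called higher, and the mural genes Rgs5 (-6.55) and Notch3 (-2.39) and the fibroblast receptor Pdgfra (-1.48) lower. The pericyte receptor Pdgfrb had a mean of 12.07 against 11.09 in non-SP arrays and did not pass in SP arrays (0.70 ± 0.28, limma adjusted p = 0.0565). Thy1, Dpt and Mfap5, named after their values were seen, did not pass against A2C12 (-0.39, 0.69 and 0.10) but were lower in Efemp1-low than in Efemp1-high SP arrays, at differences of -5.74, -5.03 and -3.05 (limma adjusted p from 7.57e-08 to 2.41e-07 for Dpt and Mfap5, and 7.12e-09 for Thy1). These surface and matrix genes differed between arrays that carry the same line labels. Zeb1, a repressor of epithelial genes, was 1.61 higher in Efemp1-low than in A2C12 SP arrays (limma adjusted p = 2.03e-06) and the homeobox factors Meox1 (-1.64) and Prrx2 (-1.67) were lower. Over 18 mesenchymal transcription factors 6 were higher and 7 lower (9 and 5 in values as deposited).

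Extracellular matrix genes differed in both directions. Of 20 collagen chains 12 were higher and 5 lower in SP arrays (median 0.70). Col4a1, a basement membrane chain, read 12.88, 13.31 and 12.96 against 10.53, 10.82 and 10.85 in non-SP arrays, and it was higher by 2.52 ± 0.14 in SP arrays (limma adjusted p = 3.67e-08). Col5a2 was higher by 2.32 and Col4a2 by 1.70, while Col14a1 (-5.07) and the microfibrillar chain Col6a3 (-4.14) were lower. Of 31 matrix glycoproteins and proteoglycans 6 were higher and 11 lower (median -0.32). Matrix Gla protein (Mgp), an inhibitor of calcification, read 9.65, 7.94 and 10.97 against 14.51, 14.64 and 14.59, with the 3 Efemp1-low arrays far apart but all below A2C12. The TGF-beta-induced adhesion protein Tgfbi (-4.87) and the laminin chain Lama4 (-3.20) were lower in SP arrays, and the elastic fibre protein Fbln5 was higher by 3.77 ± 0.18 (limma adjusted p = 6.91e-09). In values as deposited, 13 of the 31 were higher and 9 lower.

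Among 23 matrix proteases and inhibitors 6 were higher and 6 lower, near the 24.0% and 22.3% of all genes (11 and 1 in values as deposited, and 5 and 2 without the SP arrays betaD5 2 and 3). The metalloprotease Mmp23 was 4.52 higher and gelatinase A (Mmp2) 2.04 higher in SP arrays (limma adjusted p = 4.63e-09 and 2.75e-06). Collagenase Mmp13 was 2.47 ± 0.70 higher (limma adjusted p = 0.0114), a call lost without cRAF_cMYC 3 or A2C12 3 of the SP arrays (limma adjusted p = 0.0505 and 0.0541). Its A2C12 non-SP arrays were far apart, at 8.79, 7.29 and 5.56. Cell adhesion and guidance genes went both ways, 14 higher and 12 lower of 41 (22 and 3 in values as deposited, and 9 and 5 without the SP arrays betaD5 2 and 3). The integrin Itgb3 (-3.71) and the plexin receptors Plxna2 (-2.73) and Plxnd1 (-2.17) were lower, and the axon guidance ligand Slit2 was higher (2.60).

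Of 15 imprinted genes, expressed from 1 parental allele, 9 were higher and 2 lower in SP arrays (median 0.71). Besides Ndn and Peg3, epsilon-sarcoglycan (Sgce) read 10.83, 10.67 and 10.97 against 6.07, 5.66 and 5.50 in non-SP arrays and was 4.90 ± 0.17 higher in SP arrays (limma adjusted p = 6.66e-10). The adaptor Grb10 was 3.67 higher. Igf2, the paternally expressed growth factor, was at 7.19, 6.93 and 6.87 against 12.31, 11.99 and 10.86, and lower in SP arrays at -4.44 ± 0.31 (limma adjusted p = 3.02e-07). Ndn, Peg3, Sgce and Igf2 differed between Efemp1-low and Efemp1-high SP arrays by -0.12 to 0.24, with none past the test (limma adjusted p from 0.394 to 0.983). Grb10 was higher than in Efemp1-high as well (1.26).

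Members of the signalling pathways differed in both directions, with shares to be read against 24.0% higher and 22.3% lower over all genes. In the Wnt pathway 5 of 24 were higher and 9 lower in SP arrays (median -0.39). Rspo3, which sustains Wnt receptors, was 5.70 ± 0.24 higher (limma adjusted p = 3.24e-09), and the inhibitor Sfrp1 (-5.64), the ligand Wnt4 (-4.06) and the matricellular protein Ccn5 (-3.81) were lower. In the IGF axis 5 of 15 were higher and 6 lower (9 and 4 in values as deposited): the ligand Igf2 and the protease of IGF-binding proteins Htra1 (-3.40) were lower, as was the binding protein Igfbp3 (-2.22), and the receptor substrate Irs1 was higher (2.03). Among 30 TGF-beta and BMP genes 6 were higher and 10 lower, with the receptor Tgfbr1, the activin chain Inhbb (-1.58) and the pseudoreceptor Bambi (-1.23) lower and the target Ccn2 higher (3.02). In values as deposited, 13 of these 30 were higher and 2 lower, and Bambi did not pass (limma adjusted p = 0.0645). A further Inhbb probe set differed by -0.35 in SP arrays. Of 20 Notch and Hedgehog genes 6 were higher and 7 lower (10 and 4 in values as deposited), among them the Hedgehog effector Gli3 (2.94), the Notch target Nrarp (-2.26) and the Hedgehog coreceptor Gas1 (-2.95). Among 24 FGF and receptor tyrosine kinase genes 7 were higher and 6 lower, near the shares over all genes (11 and 4 in values as deposited), with neuregulin Nrg1 2.16 and the Kit ligand Kitl 1.61 higher, and the lymphangiogenic factor Vegfc (-2.96) and the receptor Fgfr1 (-1.90) lower.

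**Figure D3:**
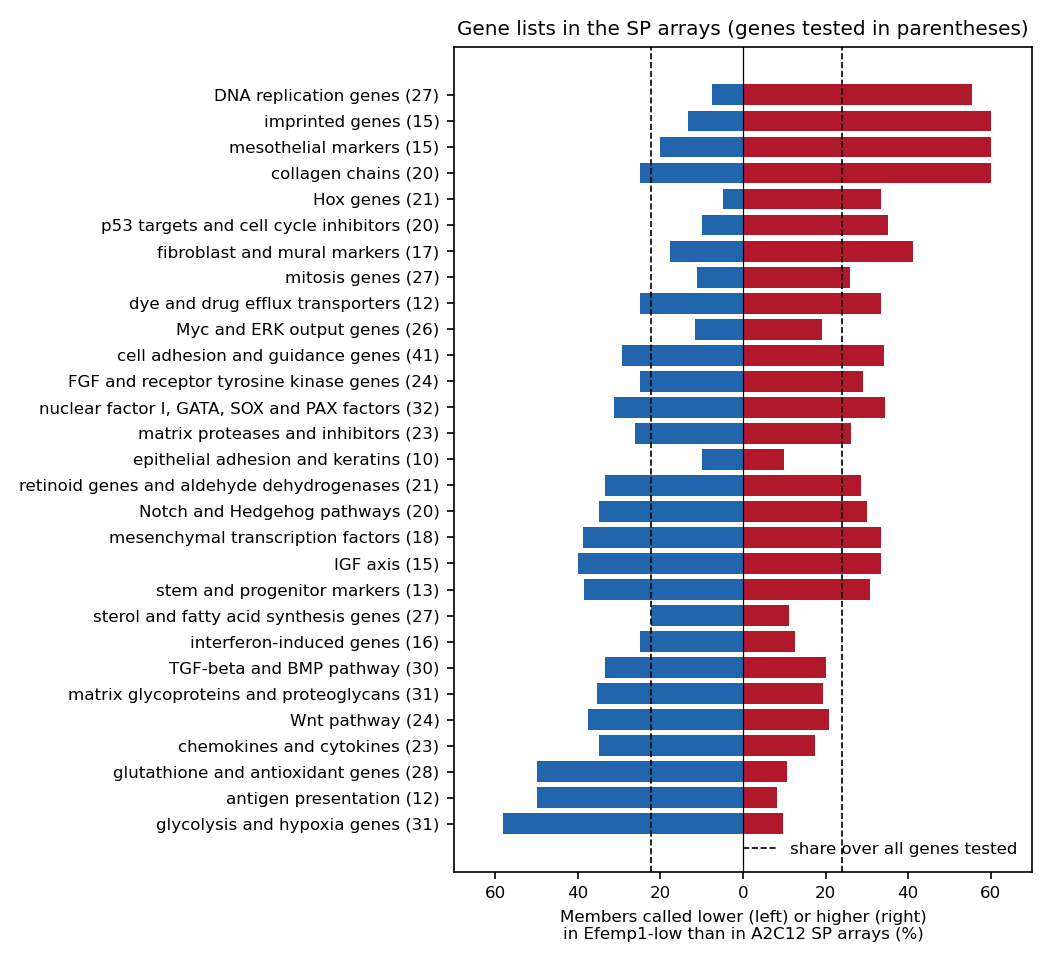
Share of the members of each list with at least 10 genes tested that were called lower (bars to the left) or higher (bars to the right) in Efemp1-low than in A2C12 SP arrays. Dashed lines mark the shares over all genes tested, 22.3% lower and 24.0% higher; glycolysis and hypoxia genes have the longest bar to the left, with 18 of 31 lower.

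Glycolysis and hypoxia genes were mostly lower in Efemp1-low: 18 of 31 lower and 3 higher in SP arrays, with a median of -0.54. The oxygen sensor Egln3 read 4.33, 4.44 and 4.19 against 9.39, 9.48 and 9.71 in non-SP arrays, and the brain-type aldolase Aldoc read 5.18, 5.18 and 5.24 against 9.54, 10.31 and 11.00. The groups did not overlap on these genes. In SP arrays Egln3 differed by -4.94 ± 0.17 and Aldoc by -5.29 ± 0.25 (limma adjusted p = 5.03e-10 and 6.85e-09), and pyruvate dehydrogenase kinase Pdk1 by -3.17. The neuronal-type glucose transporter Slc2a3 went the other way, at 8.82, 9.54 and 8.88 against 5.60, 5.49 and 5.80, and was higher in SP arrays too (limma adjusted p = 1.14e-08). The count depends on scaling: in values as deposited 5 were higher and 5 lower, and relative to the median of all genes the list's median was -0.54 there and -0.55 after quantile normalization. With the SP arrays betaD5 2 and 3 left out, 12 were lower and 3 higher.

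Of 28 glutathione and antioxidant genes 14 were lower and 3 higher in SP arrays (median -0.44; 6 lower and 11 higher in values as deposited). The glutathione transferase Gsta4 (-4.05) and Gstt1 (-3.19), the peroxidase Gpx3 (-2.28) and Mgst3 (-2.19) were lower (limma adjusted p at most 8.68e-05). Among 21 retinoid genes and aldehyde dehydrogenases 6 were higher and 7 lower (10 and 6 in values as deposited). Aldh1a1 rose against A2C12 as given above, whereas Aldh3a1, the mitochondrial folate enzyme Aldh1l2 (-4.88) and the retinoic acid binding protein Crabp1 (-3.77) were lower.

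Genes of DNA replication were mostly higher, by small amounts. Of 27 tested, 15 were higher and 2 lower in SP arrays (median 0.62; 23 and 0 in values as deposited), and 7 of 27 mitosis genes were higher and 3 lower (also 23 and 0 in values as deposited). Over all genes 24.0% were higher, near the share of the mitosis genes. The origin subunit Orc6, the GINS subunit Gins2 and the licensing factor Cdt1 reached a difference of 1 in non-SP arrays (1.09, 1.05 and 1.04), and all 3 lie on chromosome 8. With the SP arrays betaD5 2 and 3 left out 5 replication genes were higher and 0 lower, 2 mitosis genes were higher and 2 lower, and with chromosomes 8, 14 and 18 left out 10 replication genes were higher. The mitotic kinesin Kif20a was higher (2.01) and cyclin Ccnb2 lower (-0.97), although Ccnb2 did not pass in values as deposited or without the SP arrays betaD5 2 and 3 (limma adjusted p = 0.388 and 0.114). Among 26 Myc and ERK output genes 5 were higher and 3 lower, both below the shares over all genes (14 and 1 in values as deposited, and 2 and 2 without the SP arrays betaD5 2 and 3). Myc, the gene of the c-myc transgene, read 10.35, 10.88 and 10.62 against 11.12, 10.87 and 10.65 in non-SP arrays, which overlap, and differed by -0.08 ± 0.16 in SP arrays (95% interval -0.42 to 0.26; limma adjusted p = 0.715). In values as deposited this was 0.64, and called (limma adjusted p = 0.0352). Mycn was higher (1.95) and Mycl lower (-2.05), each on 1 probe set. The further probe sets differed in SP arrays by 0.14 and -0.06 for Mycn and by -0.35 and -0.19 for Mycl. The inhibitor Cdkn2b was 1.19 higher.

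Transporters and regulators also differed. Abcg2, which exports Hoechst dye and is the defining pump of SP cells, read 10.56, 10.39 and 10.68 against 8.95, 8.79 and 8.97 in non-SP arrays without overlap, and was 2.02 ± 0.18 higher in SP arrays (limma adjusted p = 1.92e-06). Against Efemp1-high it differed by 0.32 ± 0.18 (limma adjusted p = 0.19). Of 12 efflux transporters 4 were higher and 3 lower (6 and 0 in values as deposited). Gata6, an endoderm and mesoderm factor, read 10.80, 11.05 and 11.26 against 7.46, 7.07 and 7.04 and was 4.31 ± 0.24 higher in SP arrays (limma adjusted p = 2.86e-08). Hoxa9 was 3.62 higher, Sox11 2.15 higher, and Irx3 (-3.40) and Sox9 (-2.37) were lower. A further Hoxa9 probe set differed by 0.44 in SP arrays. Of 21 genes of the Hox list 7 were higher and 1 lower (13 and 0 in values as deposited), and of 32 NFI, GATA, SOX and PAX factors 11 were higher and 10 lower (18 and 7).

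Of 12 antigen presentation genes 6 were lower and 1 higher in SP arrays, against 22.3% and 24.0% of all genes, among them the class I genes H2-K1 (-1.28) and H2-D1 (-1.35) and the immunoproteasome subunit Psmb8 (-1.31). In values as deposited 2 were lower and 4 higher, and H2-K1 no longer passed (limma adjusted p = 0.0568). Of 23 chemokine and cytokine genes 8 were lower and 4 higher (6 and 8 in values as deposited, and 5 and 2 without the SP arrays betaD5 2 and 3): the decoy receptors Ackr3 (-3.69) and Tnfrsf11b (-3.05), the alarmin Il33 (-3.70) and the receptor antagonist Il1rn (-3.43) were lower. Among 16 interferon-induced genes 4 were lower, near the share over all genes, and 2 higher (2 and 7 in values as deposited, and 2 and 2 without the SP arrays betaD5 2 and 3), with Ifitm1 at 6.91, 6.78 and 7.41 against 10.99, 10.61 and 11.14 in non-SP arrays and a difference of -4.19 in SP arrays. No sterol or fatty acid gene differed by at least 1 without overlap in non-SP arrays, and 6 of 27 were lower in SP arrays and 3 higher (1 and 14 in values as deposited). The lower calls numbered 1 without the SP arrays betaD5 2 and 3.

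The Efemp1-low non-SP arrays, joined by a measured value, correlated with each other at 0.981 to 0.988 and with A2C12 at 0.850 to 0.880, which is a description. Between the non-SP arrays betaD5 2 and 3, 101 genes lay at least 1 apart, between betaD5 2 and cRAF_cMYC 3 43, and between betaD5 3 and cRAF_cMYC 3 173, against 69 to 177 for pairs of A2C12 arrays. The array labelled cRAF_cMYC 3 exceeded both betaD5 arrays by at least 1 in 19 genes and fell below both in 1. The 19 included the matrix genes Islr (8.87 against 7.13 and 5.92) and Mgp and the proteases Mmp3 (10.95 against 9.13 and 9.03) and Mmp13, named after their values were seen. With 1 cRAF_cMYC array in the group, a difference between labels and one between single arrays cannot be told apart.

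In the array controls, the Gapdh 3'/5' difference (log2), which rises with shorter RNA or cDNA, was 0.05 to 0.13 in Efemp1-low and 0.01 to 0.10 in A2C12 non-SP arrays. In SP arrays it reached 0.97 in Efemp1-low and 0.23 in A2C12, betaD5 2 and 3 being the raised ones. Without those SP arrays, which leaves 1 Efemp1-low array assumed to vary like the others, 1331 genes were called higher and 1277 lower. The 30 genes named above kept direction in that fit. They kept direction and call in every other alternative run that included them. Not every run included all 30: Gpm6a, Pmaip1, Colec12, Sfrp1 and Scara5 were absent when chromosomes 8, 14 and 18 were left out.

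The differences were unevenly spread over chromosomes, a division made after the values were seen. Over the 276 genes tested on chromosome 18 the median difference was 0.93 in non-SP and 0.97 in SP arrays, and 77.5% were called higher in SP arrays against 24.0% of all genes. Relative to the median of all genes, the chromosome 18 median of single non-SP arrays was 0.34 to 0.39 in Efemp1-low and -0.57 to -0.49 in A2C12. Efemp1-high arrays lay at 0.15 to 0.19, also above A2C12. On chromosome 8, with 605 genes, the median was 0.59 in non-SP and 0.56 in SP arrays, and Efemp1-high differed from A2C12 by 0.19 and 0.10. The Efemp1-high arrays were not alike there: relative to all genes, cRAF_cMYC 2 lay at -0.20 in non-SP arrays, within A2C12 (-0.33 to -0.18), and at -0.29 in SP arrays, where A2C12 lay at -0.27 to -0.20. On chromosome 14, with 358 genes, it was -0.51 and -0.48, and Efemp1-high was at -0.59. The shift ran along each of these chromosomes: over 5 equal runs of gene order it was 0.79 to 1.12 on 18, 0.47 to 0.70 on 8 and -0.55 to -0.47 on 14 in non-SP arrays. The other autosomes lay between -0.23 and 0.28. Pmaip1, Colec12, Zeb1 and Gata6 lie on chromosome 18, and Gpm6a, Col4a1 and Mmp2 on chromosome 8, and their differences exceed these medians. Scara5 (-6.16) lies on chromosome 14. Sfrp1 (-5.74) lies on chromosome 8 and differs in the direction opposite to the median there. In values as deposited the chromosome 14 median was 0.13 in non-SP and 0.21 in SP arrays, below the all-gene medians of 0.66 and 0.68.

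**Figure D4:**
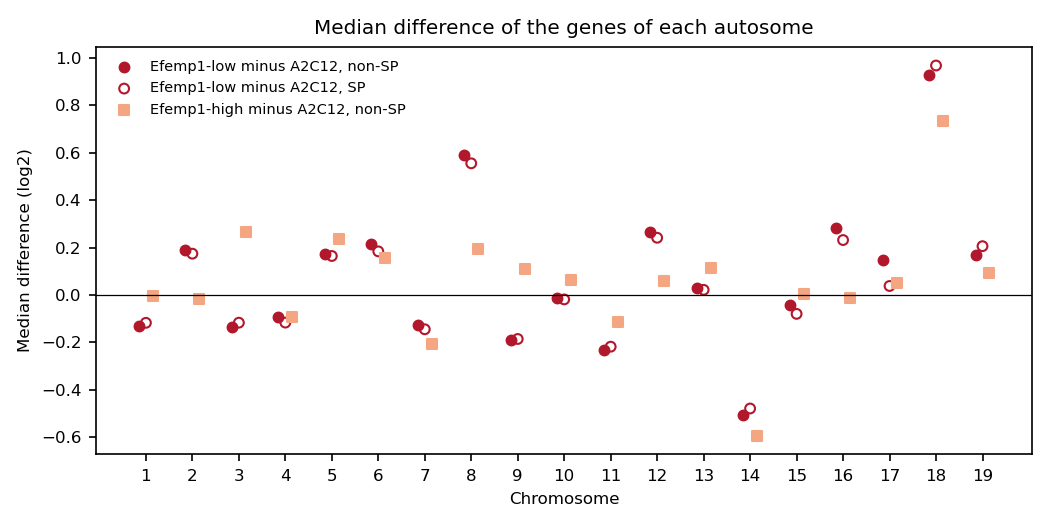
Median log2 difference of the genes tested on each autosome, for Efemp1-low minus A2C12 in non-SP (filled circles) and SP arrays (open circles) and for Efemp1-high minus A2C12 in non-SP arrays (squares). Chromosomes 18 (0.93), 8 (0.59) and 14 (-0.51) stand apart for Efemp1-low, and on chromosome 8 the Efemp1-high median is 0.19.

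The test of Efemp1-low against Efemp1-high SP arrays, which carry the same 2 line labels, called 3001 genes (27.5%), 1433 (13.1%) higher and 1568 (14.4%) lower. Without betaD5 1, betaD5 3 or cRAF_cMYC 2 it called 945, 942 or 892 genes higher. Of the fibroblast and mural markers 3 were higher and 9 lower, and of the sterol and fatty acid genes 0 were higher and 15 lower. For 7 of the named genes, the matrix genes Col6a3 and Tgfbi, the signalling genes Vegfc, Igfbp3 and Gas1, and Crabp1 and Gbp2, Efemp1-low was below and Efemp1-high above A2C12. Vegfc differed from A2C12 by -2.96 in Efemp1-low and 3.77 in Efemp1-high SP arrays (limma adjusted p = 4.32e-06 and 7.65e-07).

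**Figure D5:**
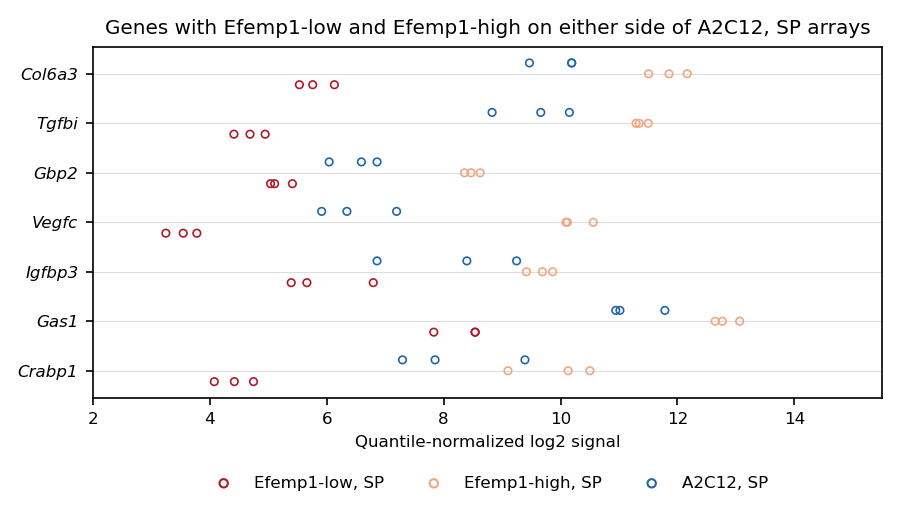
Quantile-normalized log2 signal in SP arrays of 7 genes for which the means of Efemp1-low and Efemp1-high lie on either side of A2C12; for Igfbp3 and Crabp1 single A2C12 arrays come close to or overlap the other groups. Each point is 1 array. Vegfc is 3.25 to 3.78 in Efemp1-low, 10.09 to 10.56 in Efemp1-high and 5.91 to 7.20 in A2C12.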

How the data were processed

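Affymetrix Mouse430_2-type arrays carried 45101 probe sets on 18 arrays, from 200 ng of total RNA each, per the labels' protocols. On the log2 scale, the deposited table ran from 2.28 to 15.28; the submitters' processing notes name Affymetrix Expression Console, and its version, summary algorithm and normalization are not given in the sources used here. Array medians ran from 5.80 to 6.72, so the arrays were quantile-normalized. The 64 control probe sets and 932 probe sets with several symbols were left out. For 18193 genes, the brightest probe set on average stood for the gene, symbols being updated through gene identifiers (RefSeq, GRCm38.p6) for 34741 of 34945 probe sets, and the dimmest 40% of genes by mean level were dropped. Signals have no counts, so the number of arrays limits the precision.

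Linear models from limma 3.58.1 in R 4.3.3 (eBayes with trend, two-sided, Benjamini-Hochberg over 10916 genes) were fitted to the 9 SP arrays in 3 groups of 3 and to the 9 non-SP arrays by labelled line, each with 6 residual degrees of freedom. The median 95% half-width of a difference was 0.37 in SP arrays. On simulated data with the SP fit, differences of 0.5, 1 and 2 in 200 genes were recovered in 0%, 76.5% and 98% of them, with 0, 7 and 10 false calls. Only these 200 genes differed in the simulation, whereas 46.3% of genes were called in the SP arrays. The adjusted threshold therefore differs, and the recovered shares cannot be carried over to the SP test.

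The arrays compared, the gene lists and the tests were chosen with earlier results of these data known. Named were the 15 genes of largest difference in each direction without overlap between the groups. Named too were up to 4 members of each list with a difference of at least 1 (the 2 largest where none reached it). Efemp1, Fgf13, Abcg2 and Myc were added. X- and Y-linked genes other than Fgf13 were left out. Further list members are given as counts or as examples named after their values were seen, and 1 gene of the naming rule is not reported here. The alternatives were the deposited values, median centring, other filters and probe set rules, a limit of 2, the replicate block, the 3'/5' covariate and leaving out arrays.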

Additional observations from a re-analysis of the deposited data

Results flagged for a closer look

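Of the 123 genes named by rule, 7 stood on opposite sides of A2C12 in the SP arrays of the same labelled lines: Efemp1-low was lower and Efemp1-high higher than A2C12, each past limma's test, and the difference between these 2 groups itself passed too. The share of all genes that meet these criteria was not counted. Most of the 123 were named for their difference from A2C12 in non-SP arrays, so the 7 are examples and no result about the named genes. The difference, Efemp1-low minus Efemp1-high, was -6.04 for Col6a3, a microfibrillar collagen chain, and -6.70 for Tgfbi, an adhesion protein. It was -6.73 for the lymphangiogenic factor Vegfc, -4.52 for the Hedgehog coreceptor Gas1 and -5.50 for the retinoic acid binding protein Crabp1. It was -3.71 for Igfbp3, an IGF-binding protein, and -3.30 for the interferon-induced GTPase Gbp2. Against A2C12, Vegfc differed by -2.96 in Efemp1-low and Col6a3 by -4.14, with 1.89 for Col6a3 in Efemp1-high. In the comparison by labelled line, which averages both groups, these genes differed from A2C12 by -1.16 (Col6a3) to 0.34 (Gbp2) and did not pass (limma adjusted p from 0.584 for Col6a3 to 0.951 for Vegfc).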

How the results depend on the processing

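Values as deposited, which keep the differences between array medians, listed 2917 genes higher and 349 lower in non-SP arrays and called 6083 and 527 in SP arrays, 4969 and 320 by labelled line, and 653 lower against Efemp1-high. They turned Myc in SP arrays (0.64) and the chromosome 14 medians (0.13 and 0.21). A limit of 2 listed 146 and 241 genes in non-SP arrays, leaving out the lowest 60% of genes listed 456 lower, and leaving out chromosomes 8, 14 and 18 listed 504 higher. Without the SP arrays betaD5 2 and 3, 1331 and 1277 genes were called, and with the 3'/5' covariate 578 higher and 901 lower against Efemp1-high. Leaving out 1 array at a time gave 1035 to 1950 genes higher and 813 to 1736 lower by labelled line, moved by over 1.5 times without A2C12 non-SP 2 or 3, and 892 to 1591 higher and 1147 to 1669 lower against Efemp1-high, the higher count moved that far without betaD5 SP 1 (945), betaD5 SP 3 (942) or cRAF_cMYC SP 2. The cause of these changes was not tested, apart from the fewer genes or arrays that a setting leaves. Replicate numbers did not pair the lines: same-numbered arrays of A2C12 and another line correlated in their deviations at -0.09 to 0.14, and 4 of 12 best with their own number. With the number as a block, 2562 and 2294 genes were called in SP arrays, 1750 and 1457 by labelled line, and 1127 and 1248 against Efemp1-high. Differences under about 0.37 (log2) were below the precision of most genes. Leaving out the SP arrays betaD5 2 and 3 together, or chromosomes 8, 14 and 18, was chosen after seeing the data.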
